A study of Mus musculus with 2 samples.

Results

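Binding of the transcription factor GATA4 was examined at 10 genes of the bone morphogenetic protein (BMP) pathway that act in or on endothelial cells: the ligands Bmp2, Bmp6 and Gdf2, the receptors and coreceptor Bmpr2, Acvrl1 and Eng, the inhibitory Smads Smad6 and Smad7, and the targets Id1 and Id3. The genes were taken by symbol from GENCODE mouse release M21, and all 10 were found. Every peak of the authors' optimal list whose summit, the base of highest signal, lay in a gene or within 10 kb of it was assigned to that gene. This gave 49 peaks of the 24050 optimal peaks on chromosomes 1 to 19, X and Y. The assay was ChIP-seq, in which an antibody against GATA4 pulls down chromatin and the DNA that comes with it is sequenced. Whole livers of adult, healthy mice were used, with no treatment and no genetic change named in the labels, and with age unknown and sex not collected. There was 1 group with 2 replicates, and no second condition to compare it with. Both replicates carry the same identifier for the tissue sample and for the donor, so differences between them may be technical.

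BMP ligands bind a pair of type I and type II serine/threonine kinase receptors, which phosphorylate Smad1, Smad5 and Smad9. These enter the nucleus with Smad4 and raise targets such as the Id genes and Smad6 and Smad7, which in turn damp the signal. In the liver, sinusoidal endothelial cells make Bmp2 and Bmp6, which act on hepatocytes to raise hepcidin, the hormone that limits iron uptake. The Gdf2 product, BMP9, is made in the liver, circulates, and signals in endothelium through the Acvrl1 product ALK1 with the Eng product endoglin as coreceptor. GATA4 is a zinc-finger protein, and the GATA motif that it binds was searched here as the letters AGATAA, where the first may also be T and the last also G. ETS factors, many of which act in endothelium, bind a motif that was searched as AGGAAA, where the first letter may also be C and the last also G.

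Peaks are described by the signal that the authors' peak caller gave them, which has no stated unit, and by the rank of that signal within its list, where rank 1 is the strongest. Of the replicates' own thresholded lists, the first holds 4287 peaks and the second 26314, so absence from replicate 1's list is common for all peaks. The sequencing depth behind the lists is unknown. For the marker genes of the cell types of whole liver, the share to read against is 47.6% of all protein-coding genes with a summit by the same rule. A summit was found at 5 of 5 hepatocyte genes (Alb, Ttr, Apoa1, Tat and Cyp2e1) and 6 of 6 genes of the sinusoidal endothelium (Stab1, Stab2, Lyve1, Clec4g, Gpr182 and Oit3). It was found at 0 of 4 Kupffer cell genes, 1 of 4 stellate cell genes (Reln), 1 of 3 lymphocyte genes (Cd79a, whose peak lay at the start site of its neighbour Arhgef1) and 0 of 3 cholangiocyte genes. The strongest peaks counted for Gpr182 and Alb were also nearer to the start site of another gene, Rdh1 and Afp. Binding in a whole tissue does not say which cells carried it. A site bound in few cells and one bound weakly in many cannot be told apart.

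The sequences under the summits are shown to let the motifs be seen beside the ranks. They are printed for the strongest peak of each gene that ranked in the strongest 20% of the optimal list, namely Bmp6, Eng, Acvrl1, Bmpr2, Smad6 and Id3. The single peaks of Gdf2 and Id1 were added after their values were seen, because the first holds a pair of GATA motifs at the promoter and the second holds both motifs. Each sequence is 101 bases of the mm10 plus strand, 5′ to 3′, with the summit at base 51. Capitals mark GATA motifs and ETS motifs, and a match on the minus strand appears as its reverse complement, TTATCT or TTATCA for GATA and TTTCCT or CTTCCT for ETS. The windows are chr13:38354020-38354120 in an intron of Bmp6, chr14:33940919-33941019 upstream of Gdf2, chr2:32661753-32661853 in an intron of Eng and chr15:101139996-101140096 in an intron of Acvrl1. The others are chr1:59804498-59804598 in an intron of Bmpr2, chr9:64018092-64018192 in an intron of Smad6, chr2:152741662-152741762 downstream of Id1 and chr4:136144736-136144836 in an intron of Id3.
Bmp6: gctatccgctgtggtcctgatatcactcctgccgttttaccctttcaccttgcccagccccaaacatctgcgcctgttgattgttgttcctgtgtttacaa
Gdf2: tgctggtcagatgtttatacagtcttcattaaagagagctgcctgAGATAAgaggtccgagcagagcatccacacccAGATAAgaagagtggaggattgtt
Eng: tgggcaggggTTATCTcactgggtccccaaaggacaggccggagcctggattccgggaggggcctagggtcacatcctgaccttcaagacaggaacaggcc
Acvrl1: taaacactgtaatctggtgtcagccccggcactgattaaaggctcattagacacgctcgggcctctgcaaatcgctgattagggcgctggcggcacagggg
Bmpr2: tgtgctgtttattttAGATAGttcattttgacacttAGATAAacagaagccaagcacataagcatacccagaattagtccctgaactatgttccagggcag
Smad6: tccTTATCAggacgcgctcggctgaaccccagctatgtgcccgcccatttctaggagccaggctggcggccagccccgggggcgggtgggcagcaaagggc
Id1: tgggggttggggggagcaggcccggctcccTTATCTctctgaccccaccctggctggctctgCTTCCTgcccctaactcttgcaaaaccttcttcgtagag
Id3: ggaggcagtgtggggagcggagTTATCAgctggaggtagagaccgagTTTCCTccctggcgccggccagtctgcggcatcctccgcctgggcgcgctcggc

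In these windows the Gdf2 peak held AGATAA at bases 46 to 51 and again at bases 78 to 83, and the first of them ended on the summit. Bmpr2 held AGATAG at bases 16 to 21 and AGATAA at bases 37 to 42. Eng held 1 GATA motif at bases 11 to 16 and Smad6 held 1 at bases 4 to 9, both toward the edge of the window. In Id3 the ETS motif at bases 48 to 53 covered the summit, with a GATA motif at bases 23 to 28. Id1 held a GATA motif at bases 31 to 36 and an ETS motif at bases 63 to 68. The strongest peaks of Bmp6 and Acvrl1 held neither motif in these 101 bases, which says only that those letters are not in this window.

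A GATA4 summit was found at 10 of the 10 genes, beside 47.6% of the 21755 protein-coding genes outside chromosome Y. Long genes have more room for a summit, and the share was 30.8% of genes with a span under 10 kb, 52.0% at 10 to 50 kb and 65.2% over 50 kb. The number of peaks per gene ran from 1 at Bmp2, Gdf2 and Id1 to 7 at Smad7 and Id3, 9 at Eng and 10 at Smad6. Bmp6 had 6, Bmpr2 5 and Acvrl1 2. Set beside genes of like span, the peaks of Eng, Id3 and Smad7 were many. At least 9 peaks were found at 0.0552% of genes of 10 to 50 kb and at least 7 at 0.508% of them. Among genes under 10 kb, at least 7 were found at 0.143%. The 9 of Eng include 1 region that the list gives in 2 lines with different summits. Counted once, it leaves 8 at Eng, and the share of genes with at least 8 was not computed. At least 10 peaks, as at Smad6, were found at 3.46% of genes over 50 kb. The counts at Bmp6, Bmpr2 and Acvrl1 were reached by 10.9%, 14.8% and 26.1% of genes of like span, and single peaks as at Bmp2, Gdf2 and Id1 are the common case. Nearness alone ties no peak to a gene, although for 47 of the 49 peaks the nearest protein-coding start site was that of the named gene. Another protein-coding gene lay within 10 kb of 5 of the peaks, namely Ak1 for 4 upstream of Eng and Gdf10 for the peak of Gdf2.

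**Figure D1:**
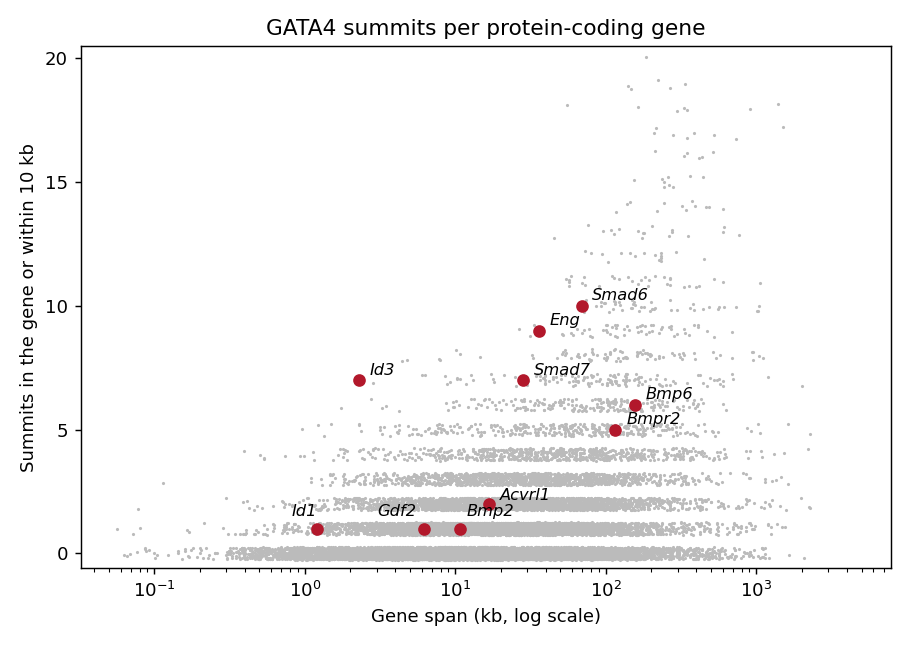
Number of optimal summits in or within 10 kb of each protein-coding gene against the gene's span in kb on a log axis. Grey points are single genes, spread a little vertically so that they can be seen, and red points are the 10 genes. Id3, with 7 summits, stands far above most genes of its span, and Eng and Smad7 lie at the upper edge of the cloud. Smad6 has 10 summits, a number reached by 3.46% of genes over 50 kb.

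The replicates' own lists differed in how many of the 10 genes they reached. Replicate 1's thresholded list had a summit at 4 of the 10, namely Bmp6, Eng, Bmpr2 and Smad7, beside 11.4% of all genes. Replicate 2's list had one at 10 of 10, beside 51.8% of all genes. The authors' conservative list of their earlier run reached 7 of the 10, beside 21.9% of all genes, and missed Bmp2, Gdf2 and Id1. The conservative list of the later run reached 8, beside 23.2% of all genes, with Id1 added. That run's pooled thresholded list, derived from both replicates, reached 9, beside 47.2% of all genes. It missed Id1 and had 3 peaks at Bmpr2.

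**Figure D2:**
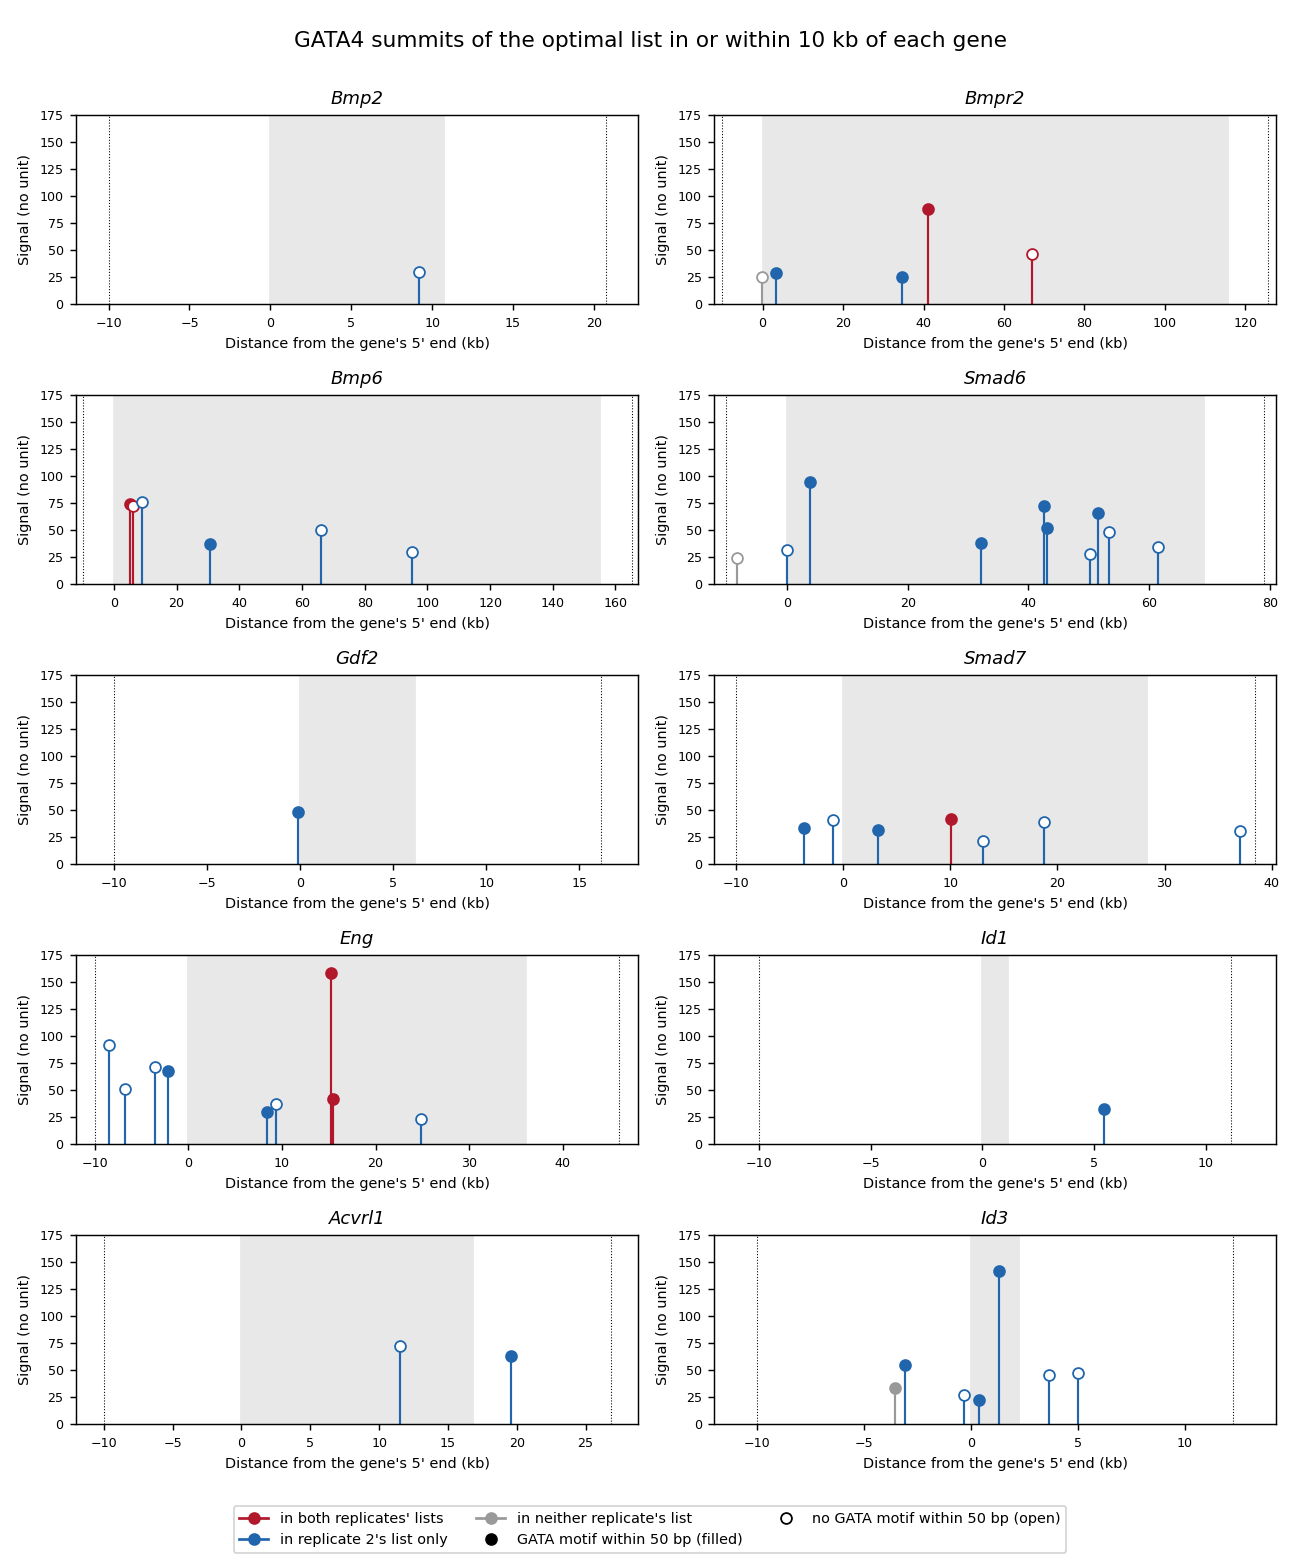
Signal of each optimal summit (vertical axis, no unit) against its distance from the 5′ end of the gene in kb, 1 panel per gene. Grey bands are the gene bodies, dotted lines mark 10 kb to each side, colour gives the replicates' lists that hold the peak and filled points have a GATA motif within 50 bp. The tallest summits lie inside Eng at 15.2 kb and inside Id3 at 1.3 kb, and red points, present in both replicates' lists, occur only at Bmp6, Eng, Bmpr2 and Smad7.

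Among the 3 ligands, Bmp6 had the strongest peak within 10 kb and Bmp2 the weakest. By the nearest start site, without that limit, the order of these 2 turned round, since a summit 56.5 kb from the Bmp2 start ranked 418. Bmp6 (chromosome 13, 38345107 to 38500302, plus strand) had 6 peaks, all in introns. Of these, 3 lay close together at 5.2, 6.2 and 9.0 kb from the 5′ end of the gene, with ranks 3081, 3347 and 2954 and signals of 74.5, 72.0 and 75.9. The strongest of them, at 38353958 to 38354179, was in replicate 2's list and both conservative lists but not in replicate 1's list. Its neighbours at 5.2 and 6.2 kb were in both replicates' lists, and the first of them held both a GATA and an ETS motif. The remaining peaks lay at 30.6, 66.0 and 95.2 kb with ranks 11411, 6804 and 15331. The peak at 30.6 kb held 2 GATA and 2 ETS motifs, 1 pair of them directly abutting with 0 bases between.

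The relaxed lists of the replicates have no IDR threshold and hold the same number of regions, 300000 each. In them the Bmp6 peak at 6.2 kb ranked 1436 in replicate 1 and 4060 in replicate 2. The peak at 66.0 kb ranked 1851 in replicate 1 and 14086 in replicate 2, and was the only other Bmp6 peak within the first 5000 of replicate 1. The strongest Bmp6 peak of the optimal list went the other way, at 9835 in replicate 1 and 2292 in replicate 2. The order of the Bmp6 peaks thus differed between the replicates.

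Gdf2 (chromosome 14, 33941039 to 33947198, plus strand) had 1 peak, at 33940789 to 33941148, with its summit 70 bases upstream of the start site. It ranked 7396 with a signal of 48.3 and was in replicate 2's list but in neither replicate 1's nor the conservative lists. Its rank was 208826 in replicate 1's relaxed list and 5561 in replicate 2's. Bmp2 (chromosome 2, 133552159 to 133562885, plus strand) also had 1 peak, at 133561187 to 133561546 in a coding exon, 9.2 kb from the start site. It ranked 15406 with a signal of 30.1, held an ETS but no GATA motif, and had no overlapping region in replicate 1's relaxed list. Neither single peak was in replicate 1's thresholded list.

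Of Eng, Bmpr2 and Acvrl1, Eng had the strongest peak and the most peaks. Eng (chromosome 2, 32646595 to 32682669, plus strand) encodes endoglin, which presents BMP9 to the receptor ALK1. Its intronic peak at 32661636 to 32662136, 15.2 kb from the 5′ end, ranked 248 of 24050 with a signal of 158.6, the highest of all 49. It ranked 518 in replicate 1's relaxed list (signal 35.5) and 209 in replicate 2's (signal 127.6), and was in both thresholded and both conservative lists. The optimal list gives the same region a second summit 0.2 kb further on, at 15.4 kb, with rank 9482, a GATA and an ETS motif 2 bases apart, and TGACTCA, the site of AP-1 factors. The Eng intron is the only site of the 10 genes that ranked within the first 1000 in both replicates.

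A second group of Eng peaks lay upstream of the gene at 8.5, 6.8, 3.6 and 2.2 kb, with ranks 1809, 6607, 3382 and 3829. All 4 were in replicate 2's list and none was in replicate 1's. The peak farthest upstream, at 32638038 to 32638225, ranked 846 in replicate 2's relaxed list and 135412 in replicate 1's. The one at 3.6 kb ranked 2345 and 126780. The one at 2.2 kb, which held a GATA and an ETS motif 17 bases apart, ranked 4399 and 4892, so that it alone of the 4 had like ranks in the replicates. Inside the gene, weaker peaks lay at 8.4, 9.4 and 24.8 kb with ranks 15776, 11328 and 20316. The last of these lay in a coding exon and held GGCGCC, a core bound by BMP-activated Smads.

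Bmpr2 (chromosome 1, 59763400 to 59879014, plus strand), the type II receptor, had 5 peaks. The strongest, at 59804490 to 59804658 in an intron 41.1 kb from the start, ranked 2042 with a signal of 87.7 and held 2 GATA motifs and no ETS motif. It was in every list examined and ranked higher in replicate 1's relaxed list, at 558, than in replicate 2's, at 3833. The peak at 67.1 kb, with rank 7971, was also in both replicates' lists and also ranked higher in replicate 1, at 2463 against 13311. The other intronic peaks at 3.3 and 34.7 kb held GATA and ETS motifs together and ranked 16054 and 19044. At the promoter, 0.2 kb upstream of the start, a peak of rank 18679 was in neither replicate's list and held GGGCGG, the letters bound by SP factors, but no GATA or ETS motif.

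Acvrl1 (chromosome 15, 101128522 to 101145336, plus strand), the type I receptor ALK1, had 2 peaks, and both ranked in the strongest 20% of the list. The first, at 101139966 to 101140135 in an intron 5.9 kb from the nearest start site, ranked 3282 with a signal of 72.5. The second, at 101148093 to 101148198, lay 2771 bases beyond the end of the gene, ranked 4448 with a signal of 63.3, and held a GATA and an ETS motif 2 bases apart. Both were in replicate 2's list and neither in replicate 1's. Only the second was in the conservative lists. In the relaxed lists it ranked 7972 in replicate 1 and 4316 in replicate 2, while the intronic peak ranked 63733 and 2434.

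The inhibitory Smads had many peaks, with ranks from 1650 to 19696 at Smad6 and from 9568 to 21325 at Smad7. Smad6 (chromosome 9, 63953076 to 64022059, minus strand), which blocks BMP-activated Smads and their receptors, had 10, of which 8 lay in introns. The strongest, at 64018024 to 64018222, 3.9 kb from the 5′ end, ranked 1650 with a signal of 94.6. A peak at 32.2 kb ranked 10766 and held a GATA and an ETS motif 12 bases apart. Farther on came a group between 42.6 and 61.5 kb, with 6 peaks ranking from 3326 to 16883, the strongest of which held 2 GATA motifs. None of the 10 was in replicate 1's list and 9 were in replicate 2's. The strongest ranked 56108 in replicate 1's relaxed list and 937 in replicate 2's. No region of replicate 1's relaxed list overlapped the peaks at 43.1, 50.2 and 61.5 kb, the promoter peak or the weakest peak, 8.3 kb upstream. The weakest peak was also in neither thresholded list.

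Smad7 (chromosome 18, 75367529 to 75395935, plus strand), which damps both BMP and TGF-β signals, had 7 peaks, none of them in the strongest 20%. They ranked from 9568 to 21325 with signals from 22.0 to 41.5. The strongest, at 75377468 to 75377827 in an intron 10.1 kb from the 5′ end, was in both replicates' lists and held a GATA and an ETS motif 11 bases apart. Its rank was 4468 in replicate 1's relaxed list and 11295 in replicate 2's. A further 2 peaks lay at promoters, 933 bases upstream of the gene and 792 bases from a start site inside it. The other peaks lay at 13.0 and 18.8 kb in introns, 3.6 kb upstream and 8604 bases beyond the end of the gene, and held 1 GATA motif among them, in the upstream peak. All 7 were in replicate 2's list.

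The targets Id1 and Id3 encode helix-loop-helix proteins that bind partner transcription factors and keep them off DNA, and they differed widely here. Id3 (chromosome 4, 136143497 to 136145755, plus strand), a gene of 2.3 kb, had 7 peaks within 5.0 kb of its start. The strongest, at 136144642 to 136144894 in an intron 1.3 kb from the start, ranked 409 with a signal of 141.6. Beside its GATA and ETS motifs it held GGCGCC and CAGCTG, an E-box. It ranked 192 in replicate 2's relaxed list (signal 130.3) and 5423 in replicate 1's (signal 14.2), and was in replicate 2's and the conservative lists but not in replicate 1's.

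A pair of Id3 peaks lay upstream at 3.6 and 3.1 kb, with ranks 13043 and 5786, and 1 region of replicate 1's relaxed list, of rank 4091, overlapped both. The peak at 3.1 kb held 2 GATA motifs, and in that at 3.6 kb a GATA and an ETS motif overlapped by 1 base. Downstream, peaks at 3.6 and 5.0 kb ranked 8240 and 7671 and held ETS but no GATA motifs, 3 of them at 5.0 kb. The 2 promoter peaks, 307 bases upstream and 389 bases downstream of the start, were among the weakest, at ranks 17238 and 21139. No Id3 peak was in replicate 1's thresholded list.

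Id1 (chromosome 2, 152736251 to 152737410, plus strand) had 1 peak, at 152741532 to 152741891, 4302 bases beyond the end of the gene. It ranked 13632 with a signal of 32.9. It was in replicate 2's list and in the conservative list of the later run. The conservative list of the earlier run, replicate 1's list and the later run's pooled list did not hold it. Its rank was 38914 in replicate 1's relaxed list and 8189 in replicate 2's. Id1 and Id3 thus had 1 and 7 peaks within the same distance.

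**Figure D3:**
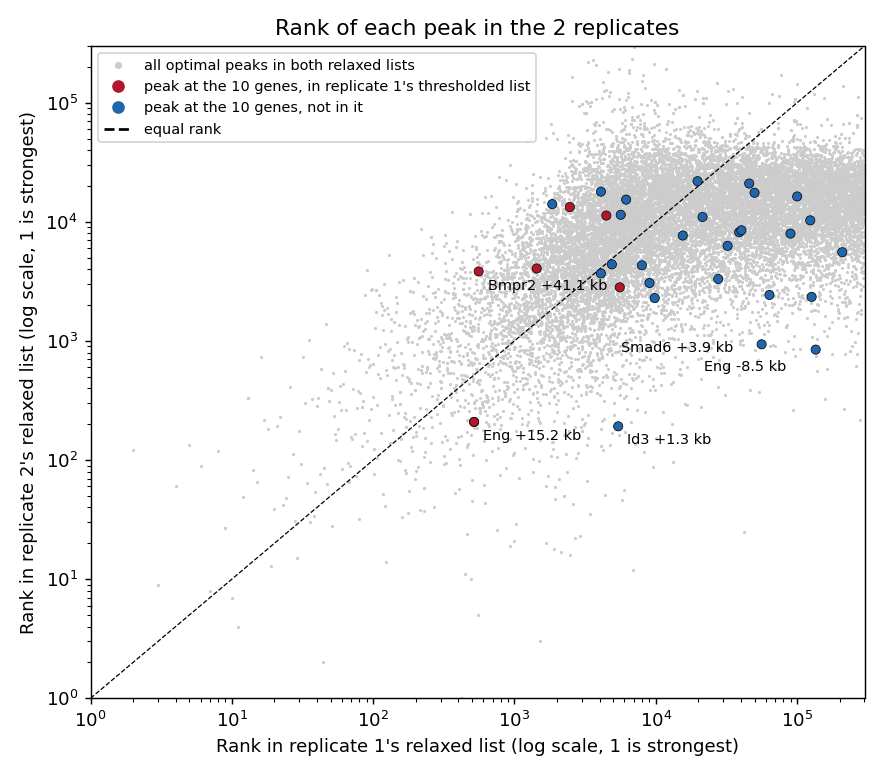
Rank of each optimal peak in replicate 1's relaxed list (horizontal) and replicate 2's (vertical), both on log axes, for peaks found in both. Grey points are all such peaks, coloured points the 34 at the 10 genes, and the dashed line marks equal rank. Points below the line ranked higher in replicate 2, as 25 of the 34 did (73.5%), beside 62.9% of all such peaks. Eng at 15.2 kb lay near the line. Id3 at 1.3 kb, Smad6 at 3.9 kb and Eng at 8.5 kb upstream lay far below it.

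Over all 49 peaks, presence in replicate 1 was close to the background and presence in replicate 2 above it. Replicate 1's thresholded list held 7 of the 49 peaks (14.3%, 95% Wilson interval 7.10 to 26.7), beside 17.0% of all optimal peaks. Replicate 2's held 46 (93.9%, 83.5 to 97.9), beside 82.5%. Both counts include the 2 Eng summits of 1 region, which matched 1 region in each replicate's list. Replicate 1's list itself had 6 summits at the 10 genes. The 3 peaks in neither list were the promoter peak of Bmpr2, the upstream peak of Smad6 and the peak 3.6 kb upstream of Id3. The conservative list of the earlier run held 21 (42.9%, 30.0 to 56.7), beside 38.2%, and that of the later run 22 (44.9%, 31.9 to 58.7), beside 40.8%. These intervals cover counting error over peaks only, and peaks of 1 gene are not independent. Replicate 1's relaxed list overlapped 34 of the 49 (69.4%, 55.5 to 80.5), beside 72.1%, and replicate 2's overlapped all 49.

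Most of the peaks that ranked high in the optimal list had their higher rank in replicate 2. Of the 49, 14 ranked in the strongest 20% of the whole list (28.6%, 17.8 to 42.4): 4 at Eng, 3 each at Bmp6 and Smad6, 2 at Acvrl1 and 1 each at Bmpr2 and Id3. Of these 14 peaks, 4 were in replicate 1's list, beside 60.0% of all 4810 peaks of the strongest 20%. In the relaxed lists 12 of the 14 (85.7%) ranked higher in replicate 2, beside 56.8% of all peaks of the strongest 20% found in both. Their median rank was 8500.5 in replicate 1 and 2627.5 in replicate 2, while for all peaks of the strongest 20% the medians were 2706.5 and 2420.5. With 14 peaks at 6 genes this is a description and was not tested. The median rank of the 49 peaks in the optimal list was 9568, beside 12025.5 for the whole list.

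**Figure D4:**
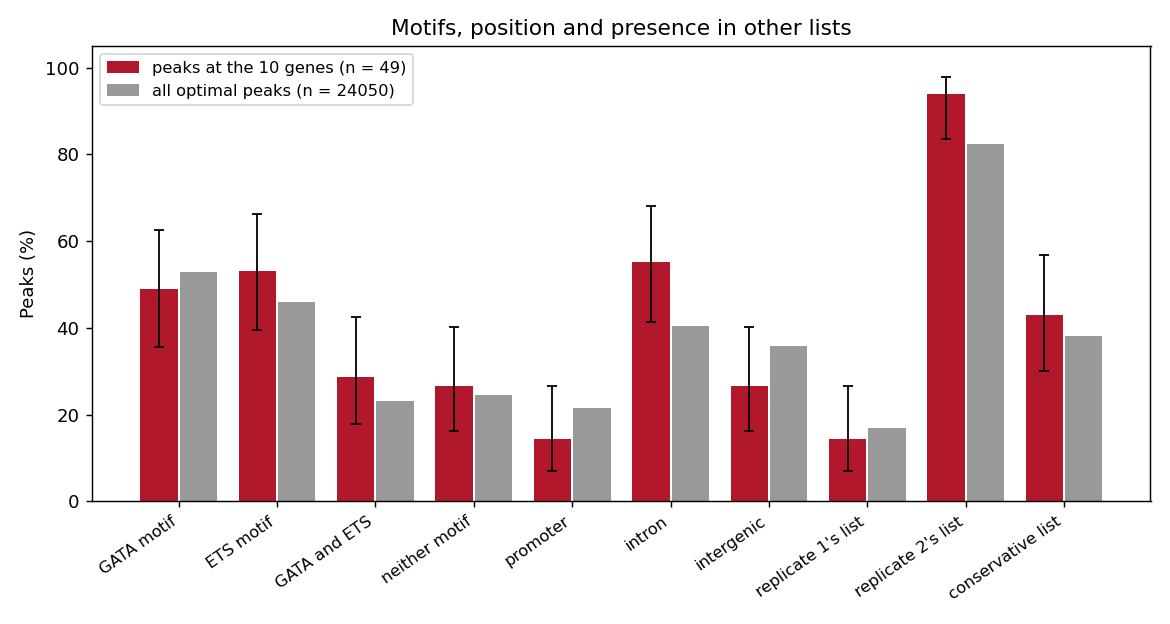
Percent of the 49 peaks at the 10 genes (red) and of all 24050 optimal peaks (grey) with each motif, at each kind of position and in each list. Bars start at 0 and error bars are 95% Wilson intervals. The grey value lies outside the interval for introns, where 55.1% stands beside 40.4%, and for replicate 2's list, where 93.9% stands beside 82.5%. It lies inside the interval for the other 8 measures. The red peaks were chosen in or near genes and the grey ones were not, which affects the shares by position.

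By position, 27 of the 49 summits lay in introns (55.1%, 41.3 to 68.1), beside 40.4% of all optimal peaks. A further 7 lay at promoters, meaning within 1 kb of a protein-coding start site (14.3%, 7.10 to 26.7), beside 21.6%. Another 13 were intergenic (26.5%, beside 35.7%), and 2 lay in coding exons, of Bmp2 and Eng. The rule itself admits only summits in or near genes. The high intron share and the low intergenic share thus both follow in part from how the peaks were chosen. The promoter peaks belonged to Gdf2, Bmpr2, Smad6, Smad7 and Id3, and none of them ranked in the strongest 20%. The strongest promoter peak was that of Gdf2, at rank 7396.

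The shares with GATA and ETS motifs lay near those of the whole list. A GATA motif lay within 50 bp of 24 of the 49 summits (49%, 35.6 to 62.5), beside 52.8% of all optimal peaks. An ETS motif lay within 50 bp of 26 (53.1%, 39.4 to 66.3), beside 46.0%. Both were found at 14 (28.6%, 17.8 to 42.4), beside 23.2%, and neither at 13 (26.5%), beside 24.5%. Outside promoters the GATA motif was found at 21 of 42 summits (50%, 35.5 to 64.5), beside 60.3%, and the ETS motif at 25 of 42 (59.5%, 44.5 to 73.0), beside 47.0%. Of the 14 peaks in the strongest 20%, 9 held a GATA motif, beside 76.1% of all peaks with ranks that high. The background lay inside each interval given.

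**Figure D5:**
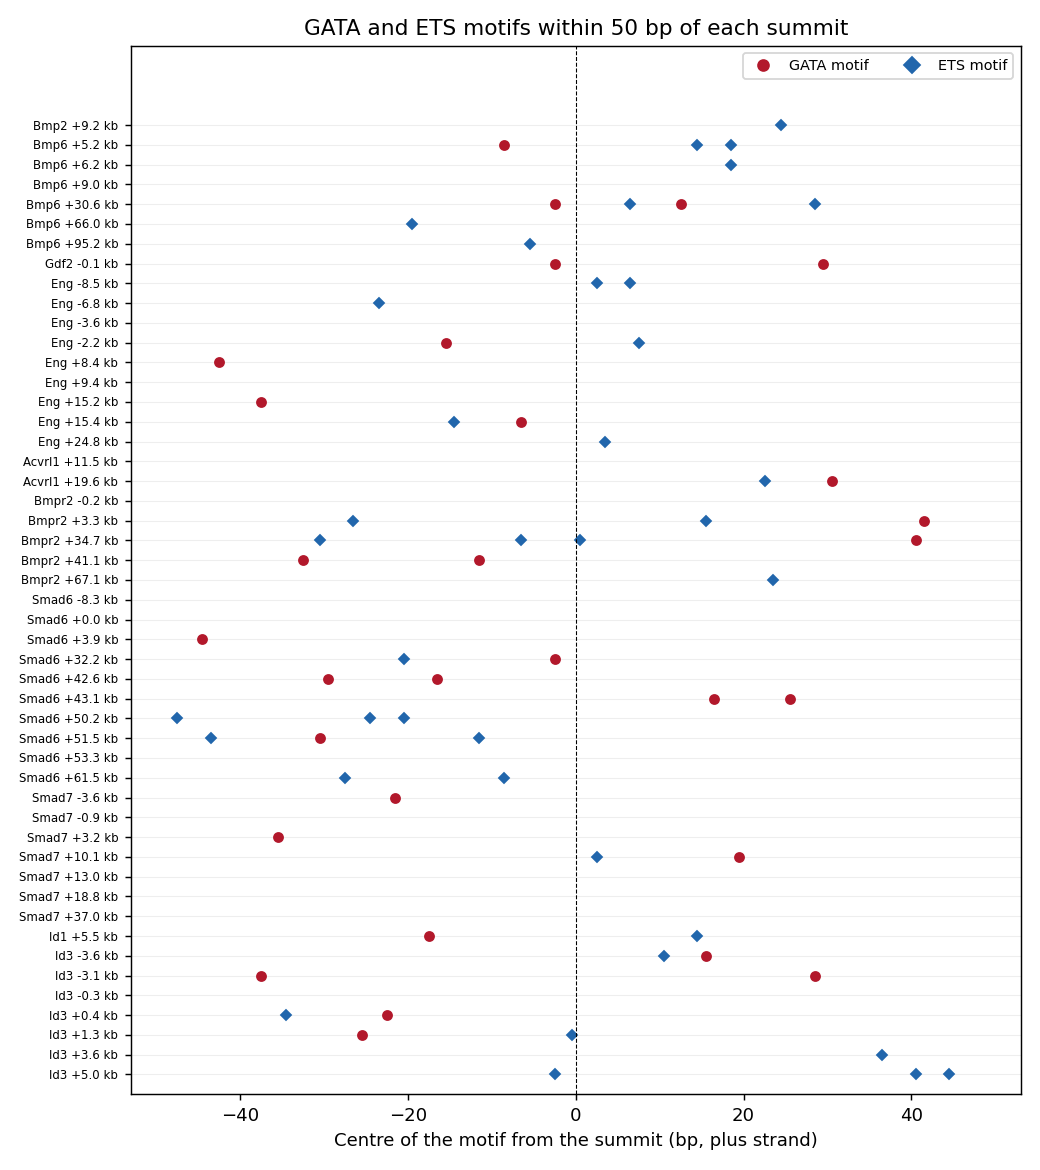
Position of each GATA motif (red circle) and ETS motif (blue diamond) relative to the summit, in bases along the plus strand, for the 49 peaks in order of gene and distance from the gene's 5′ end. Rows without a symbol are the 13 peaks with neither motif. Smad7 has 4 such rows of 7, and Bmp6 has 5 rows with an ETS motif and 2 with a GATA motif. Of all optimal peaks, 24.5% hold neither motif, 46.0% an ETS motif and 52.8% a GATA motif.

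The motif counts within single genes are small. They stand beside 52.8% of all optimal peaks with a GATA motif and 46.0% with an ETS motif. At Bmp6, 5 of 6 peaks held an ETS motif and 2 a GATA motif, and at Id3, 5 and 4 of 7. At Eng, 5 of 9 held an ETS and 4 a GATA motif, and at Smad6, 4 and 5 of 10. At Smad7, 1 of 7 held an ETS and 3 a GATA motif. Of the strongest peak of each gene, 7 of 10 held a GATA motif, the exceptions being Bmp2, Bmp6 and Acvrl1, and 4 of 10 an ETS motif. In the 14 peaks with both, the number of bases between the closest pair ran from an overlap of 1 base to 34. Of the other letters searched, on both strands, GGCGCC was found at 2 of 49 summits (4.08%, beside 2.92%), CAGCTG at 2 (beside 7.68%), TGACTCA at 2 (beside 2.45%) and GGGCGG at 4 (8.16%, beside 9.33%).

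Of 50 other genes of the BMP, activin and TGF-β pathways, 31 had a summit by the same rule, beside 47.6% of all protein-coding genes. By length, 9 of 15 under 10 kb, 9 of 14 of 10 to 50 kb and 13 of 21 over 50 kb had one, to be read beside the shares for all genes of those spans given above. Receptors and coreceptors had a summit at 10 of 12, ligands at 5 of 10 and Smads at 4 of 6. Antagonists and inhibitors had one at 7 of 16 and targets at 5 of 6. These small groups stand beside the same 47.6% and were not matched for gene length, so their order carries little. Replicate 1's list reached 12 of the 50 and replicate 2's 35, beside 11.4% and 51.8% of all genes. The strongest peaks of this list ranked above the Eng intron. An intron of Bmper, which encodes a secreted BMP-binding protein, held the peak of rank 26, and a site 6626 bases from the start of Fst, which encodes the activin antagonist follistatin, that of rank 28. Tgfbr3, encoding betaglycan, a coreceptor related to endoglin, followed with rank 558 and 11 peaks, a number reached by 2.54% of genes over 50 kb. Tgfbr2, the type II receptor for TGF-β, had rank 676. The type I receptor gene Acvr1 had rank 1180 and 10 peaks, a number reached by 3.46% of genes over 50 kb. Fstl1 had rank 1241, with a peak nearer to the start site of Gm36028. Next came the BMP target Atoh8 with rank 1271 and Crim1 with rank 1292.

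Among the groups with small counts, the ligands with a summit were Bmp4, Bmp10, Inhba, Tgfb1 and Tgfb3. The strongest Tgfb1 peak lay 129 bases from the start site of its neighbour B9d2. The only Tgfb3 peak lay in an intron of Ift43. Smads with a summit were Smad1, Smad3, Smad5 and Smad9, and the targets were Hamp, Id2, Id4, Atoh8 and Hey1. Bmp10, whose product signals through ALK1 as BMP9 does, had 6 peaks, a number reached by 0.273% of genes under 10 kb. Hamp, which encodes hepcidin, had 1 peak at its promoter with rank 4864 and a GATA motif. That peak was in replicate 2's list and not in replicate 1's.

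The distance of 10 kb cuts through the surroundings of some genes. Just inside it lay the Eng peak at 8454 bases from the gene, of rank 1809, and the Smad7 peak at 8604 bases, of rank 14577. Just outside lay a peak 11583 bases from Eng, of rank 1813, and one 10926 bases from Smad6, of rank 17203. With 25 kb in place of 10 kb, Bmpr2 and Smad6 each gained 4 peaks, Eng 2 and Bmp2 1, and the other 6 genes none.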

How the data were processed

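Per the labels, both replicates point to control libraries, which were not used here. The lists are on mm10, and which aligner and peak caller made them is not stated in the labels or headers. The authors deposited a signal for each peak without a unit, which served here to order peaks inside a list. They also deposited a score for the irreproducible discovery rate (IDR), which the values show to be −log2(IDR) multiplied by 125 and limited to 1000. The thresholded lists hold peaks with a deposited IDR score of at least 537 or 540, and 540 is an IDR of 0.05. The value 537 belongs to the earlier run, with the optimal list and 1 conservative list. The value 540 belongs to the later run, with the replicates' own lists, the other conservative list and the pooled list. The relaxed list of each replicate holds 300000 regions, so the ranks of the replicates come from lists of like length. Of 24083 lines in the optimal list, 33 outside chromosomes 1 to 19, X and Y were left out.

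Summits were set against the 21938 protein-coding genes and 41492 start sites of GENCODE release 21 (basic) on GRCm38.p6, which is mm10, and the sequences come from that RefSeq assembly. A summit within 1 kb of a protein-coding start site was called promoter, otherwise exon, intron or intergenic. Motif searches covered both strands and 50 bp to each side of a summit. Lists were matched by an overlap of at least 1 base, and where several regions overlapped a peak, that of highest signal was taken. Coordinates are printed from 1. In 1 case, at Eng, the list gives a region in 2 lines with different summits, and both were kept.

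No p-value was computed, because 1 group carries no contrast and peaks and genes are not replicates. Counts stand beside the same share over all genes or peaks, with 95% Wilson intervals. The 10 genes, the other pathway genes and the markers were chosen with earlier results of these data known. The text names all 10 genes and their peaks, the 8 other pathway genes with the strongest peaks, and every gene of a count of 5 or fewer. Bmp10 and Hamp were given values of their own after these were seen. Alternatives covered distance, gene links, lists, an IDR of 0.01, motif windows of 100 bp, motif forms and overlap. Counting the repeated position once was added after seeing the data. The code was tested on simulated data. Tools were Python 3.11.15, pandas 2.3.3, pysam 0.24.0, statsmodels 0.14.6 and samtools 1.23.1.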

Additional observations from a re-analysis of the deposited data

How the results depend on the processing

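Of 55 recomputed values, 40 stayed within 1.5 times the count, or inside the interval of the share, and 15 moved. A summit was found at 10 of the 10 genes within 5 kb (42.4% of all genes) and within 25 kb (58.1%). All 10 were also reached by the nearest start site (43.1%). The count was 9 at an IDR of 0.01 (36.8%) and in the later run's pooled list (47.2%), and 8 inside the gene (28.9%). Leaving out 1 replicate gave 4 to 10 genes and 6 to 56 peaks at them, and 12 to 35 of the 50 other pathway genes. The low values came from replicate 1's list, which had a summit at 11.4% of all genes, beside 51.8% for replicate 2's list. The 49 peaks became 32 inside the genes, 84 by the nearest start site, and 48 with the repeated Eng region counted once. In the conservative lists of the earlier and later run they became 21 and 22. There 17 and 19 of the other pathway genes had a summit, beside 21.9% and 23.2% of all genes. The share of peaks with a GATA motif was 24.5% for AGATAA alone (27.2% of all peaks). With an ETS motif it was 75.5% in windows of 100 bp (65.8% of all peaks), 4.08% for longer forms of the motif (7.86%), and 44.6% to 66.7% without 1 replicate. In the relaxed lists 69.4% of the peaks were found for replicate 1 and 100% for replicate 2. The cause of the shifts was not tested.

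The 2 replicates share tissue and donor identifiers, so no spread between animals can be given. Of the 10 genes, 6 have no peak in replicate 1's thresholded list, of which Acvrl1, Smad6 and Id3 have 1, 3 and 3 peaks in the conservative list of the earlier run. Signals have no unit and depth is unknown, so a site absent from replicate 1's list was not called there and is not shown to be unbound. No paired analysis was possible because there is 1 group.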

Other observations

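Bmp2, Smad6 and Smad7 had further GATA4 summits well beyond 10 kb for which theirs was still the nearest protein-coding start site. For Bmp2, which had 1 peak within 10 kb, 14 such summits were found. The first replicate's list held 6 of them and the second's 11. The strongest lay 56.5 kb from the start site, ranked 418 with a signal of 141.0, and was in replicate 1's list, unlike the peak in the Bmp2 coding exon. With 15 summits nearest to its start, Bmp2 stood with 0.391% of all genes that had as many. Smad6 had 11 summits beyond 10 kb, the strongest 38.3 kb from a start site with rank 212 and a signal of 165.3, present in replicate 1's list. Smad7 had 10, the strongest 133.1 kb away with rank 118 and a signal of 185.5, absent from replicate 1's list. The Smad6 and Smad7 summits ranked above the Eng intron, and the Bmp2 summit below it. As many nearest summits as at Smad6 (21) and Smad7 (17) were found at 0.0919% and 0.225% of all genes. Such counts grow with the distance to the next gene, and nearness does not assign a summit to a gene. Eng, Id3, Bmp6, Acvrl1, Gdf2 and Id1 had no such summit beyond 10 kb, and Bmpr2 had 2.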
